A study of Mus musculus with 12 samples.

Results

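The genes described here encode the subunits of oxidative phosphorylation (OXPHOS). They were taken as every protein-coding gene of the deposited table whose symbol marks an Nduf, Sdh, Uqcr, Cox4 to Cox8 or Atp5 subunit, plus every protein-coding gene of the mitochondrial chromosome. The rule found 95 of 29862 genes, of which 82 are encoded in the nucleus and 13 in the mitochondrial genome. The cells were mandibular fibrochondrocytes, the fibrocartilage cells of the jaw joint, grown from the condylar cartilage of C57BL/6J pups aged 10 to 14 days. All 12 cultures carried a retrovirus with hTERT, the catalytic subunit of telomerase that immortalizes cells, and GFP. NG2|EDmut cells are 1 clone in which CRISPR/Cas9 removed the type VI collagen binding region from the ectodomain of the NG2/CSPG4 proteoglycan. Control cells are the 1 immortalized clone from which they were made, so the edit and other differences between the clones cannot be told apart. RNA-seq compared NG2|EDmut cells in serum, control cells in serum, NG2|EDmut cells under serum starvation and control cells under serum starvation, with 3 libraries each. The study's methods call the 3 libraries of a group biological replicates, but no source used here says that they came from separate cultures, so p-values measure only the spread between these libraries, which may be technical. Serum cultures had AMEM with heat-inactivated FBS and starved cultures had Opti-MEM, so loss of serum and change of medium cannot be told apart. No source used here states how long the cells were starved.

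Complexes I to IV of the inner mitochondrial membrane pass electrons from NADH and succinate to oxygen and, except for complex II, pump protons. Complex V, the ATP synthase, uses the proton gradient to make ATP. The mitochondrial genome encodes core subunits of complexes I, III, IV and V and none of complex II, and all other subunits are made in the cytosol and imported, so all but complex II need transcripts of both genomes. Cartilage cells live at low oxygen and are known for a large share of glycolysis.

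The libraries held 60277900 to 77172500 estimated counts (rounded to 6 digits). Fibroblast and fibrocartilage markers (11 genes) summed to 47245 to 51497 CPM (counts per fixed number of reads, normalized for library size) in NG2|EDmut libraries and 40462 to 54209 CPM in control libraries, with Col1a1 of type I collagen at a mean of 24224 to 26597 CPM in the NG2|EDmut groups and 21083 to 22245 CPM in the control groups. Most of this sum was Col1a1 and Col1a2. None of the 11 genes was higher and 5 were lower in NG2|EDmut cells in serum, and 1 was higher (Dcn, a proteoglycan, at a log2 fold change of 1.48) and 5 were lower under starvation. Sox9, a cartilage transcription factor, Col3a1 of type III collagen, the matrix protein Comp and the lubricant Prg4 were lower in both media, and Col2a1 of type II collagen was lower in serum (log2 fold change -1.36). Levels were low for Prg4, with group means of 0.164 to 1.26 CPM, and for Comp, with 2.08 to 7.59 CPM. Acan, the gene of the cartilage proteoglycan aggrecan, had group means of 0.167 to 1.05 CPM and was not called between the lines in either medium. The cartilage gene Matn1 was at 0 in all NG2|EDmut libraries and under 1 CPM on average in control cells. Cspg4, the edited gene, was at 251, 219.9 and 151 CPM in NG2|EDmut against 178, 135 and 84.2 CPM in control cells in serum, and at 202, 232 and 251 CPM in NG2|EDmut against 96.7, 53.9 and 102 CPM in control cells under starvation (log2 fold changes 0.65 and 1.44, adjusted p = 0.111 and 0.00214). A count over the whole gene does not check the truncated region. The library of control serum replicate 1 stood apart: it correlated more with the starved control libraries (mean Pearson's r over genes 0.963) than with the other control serum libraries (0.956). Cytosolic rRNA took over 2% of the estimated counts in NG2|EDmut serum replicate 3 (2.99%), control serum replicate 3 (3.49%) and control starved replicate 2 (4.5%). Counts that move without these libraries are given beside each result.

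Per unit of length, as FPKM (fragments scaled by transcript length and depth), transcripts of the mitochondrial genome stood far above those of the nuclear genes in each group. The median mitochondrial gene had 1806 FPKM in NG2|EDmut and 2539 FPKM in control cells in serum, and 1834 FPKM in NG2|EDmut and 3092 FPKM in control cells under starvation. The median nuclear gene had 28.2 FPKM in NG2|EDmut and 29.2 FPKM in control cells in serum, and 29.9 FPKM in NG2|EDmut and 24.6 FPKM in control cells under starvation. In all 4 groups mt-Co1, the catalytic subunit of complex IV, was the highest mitochondrial gene and mt-Nd3 of complex I the lowest. Among nuclear genes Atp5b, the catalytic beta subunit of the ATP synthase, was highest, with 326 FPKM in NG2|EDmut and 377 FPKM in control cells in serum. Of the 82 nuclear genes, 78 were at or above a mean of 1 FPKM in each group. Cox4i2, Cox6b2, Cox7a1 and Cox8b were not, and did not pass the filter on low counts, which left 78 nuclear and all 13 mitochondrial genes among the 18703 genes tested.

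The median level of the nuclear genes lay within a narrow range over the complexes, though the order of the complexes changed between groups. It was, in serum-fed NG2|EDmut cells, 25.4 FPKM for the 35 nuclear genes of complex I and 31.3 FPKM for the 4 of complex II. It was 37.4 FPKM for the 8 of complex III, 22.2 FPKM for the 18 of complex IV and 32 FPKM for the 17 of complex V. Only 14 of the 18 genes of complex IV were at or above 1 FPKM, which lowers its median. In serum-fed control cells the medians ran from 23.4 FPKM for complex I to 36.2 FPKM for complex V, with complex IV at 31.4 FPKM. Single genes of a complex spread far more widely. In complex I of serum-fed NG2|EDmut cells Ndufb2 was at 2.37 FPKM and Ndufa8 at 66.7 FPKM. Ndufa4 is counted under complex IV, of which it is now known as a subunit. Cox7a2l, a factor that joins complexes III and IV into supercomplexes, and Cox5b-ps, named as a pseudogene but listed as protein-coding, also meet the rule, and reads of Cox5b-ps and Cox5b may be split between the 2 copies.

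Summed over the 13 genes, mitochondrial transcripts were lower relative to nuclear OXPHOS transcripts in NG2|EDmut than in control cells. Under starvation the ratio of summed CPM, mitochondrial over nuclear, was 3.13, 3.29 and 3.06 in NG2|EDmut libraries against 7.59, 6.89 and 4.5 in control libraries. The 3 NG2|EDmut values lay close together and below every control value, and the means, 3.16 ± 0.117 and 6.33 ± 1.62 (SD, n = 3 each), gave a ratio of NG2|EDmut over control of 0.499. In serum the ratio was 2.55, 2.96 and 3.85 in NG2|EDmut against 6.18, 3.0 and 4.6 in control libraries, with control replicate 2 inside the NG2|EDmut range. Under starvation most of the difference lay in the mitochondrial sum, with a ratio of means, NG2|EDmut over control, of 0.538 against 1.08 for the nuclear sum. The mitochondrial sum was 22439, 22222 and 21268 CPM in starved NG2|EDmut and 43857, 51574 and 27210.4 CPM in starved control cells. The nuclear sum was 7175, 6761 and 6954 CPM in starved NG2|EDmut and 5778, 7486 and 6048 CPM in starved control cells, and overlapped between the lines. That overlap rested on control replicate 2, at 4.5% cytosolic rRNA. Control replicates 1 and 3 lay below every starved NG2|EDmut library in the nuclear sum. On the FPKM scale the mean ratio was 6.39 in starved NG2|EDmut and 12.4 in starved control cells. In serum it was 6.39 in NG2|EDmut and 9.6 in control cells. Either ratio is a description and was given no test.

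**Figure D1:**
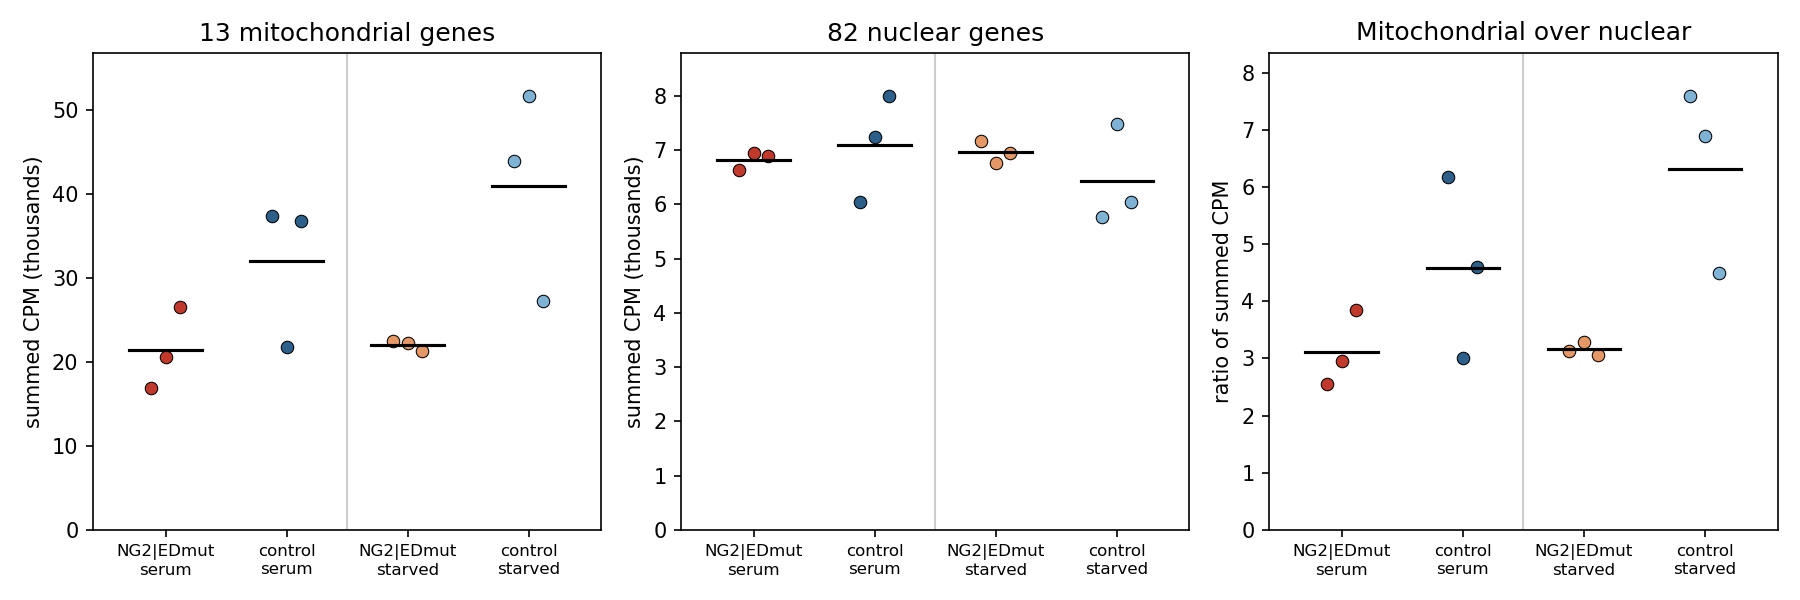
Summed normalized CPM of the 13 mitochondrial genes, of the 82 nuclear genes and their ratio (y axes, from 0) in each library (points, replicates 1 to 3 from left to right), by group, with the group mean as a bar. The starved NG2|EDmut libraries sit at ratios of 3.06 to 3.29, all below the starved control libraries at 4.5 to 7.59.

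Mitochondrial rRNA was also lower in NG2|EDmut than in control cells under starvation, whereas in serum its values overlapped between the lines. The share of mitochondrial rRNA was 0.0901, 0.0834 and 0.0807% in starved NG2|EDmut and 0.172, 0.312 and 0.1% in starved control libraries, and 0.0738, 0.104 and 0.183% in NG2|EDmut and 0.113, 0.0464 and 0.186% in control libraries in serum. Cytosolic rRNA took 0.978, 0.553 and 0.577% in starved NG2|EDmut and 1.02, 4.5 and 0.818% in starved control libraries. Within the starved control group and within the NG2|EDmut serum group the library richest in cytosolic rRNA also had the highest mitochondrial mRNA sum. In the control serum group replicate 3, at 3.49% cytosolic rRNA, had 36775 CPM, below the 37320.3 CPM of replicate 1 at 0.377%. When the 3 libraries over 2% cytosolic rRNA were left out, all 13 mitochondrial genes kept a negative log2 fold change in both line comparisons. Under starvation this could hardly be otherwise, since the lines did not overlap for any of the 13. Libraries were selected for poly(A), so the amount of a mitochondrial transcript and the length of its tail cannot be told apart. In a culture, fewer cells of a type and less RNA per cell likewise cannot be told apart.

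Under starvation all 13 mitochondrial genes were lower in NG2|EDmut than in control cells (edgeR quasi-likelihood test, adjusted p under 0.05), and for each of them the 3 NG2|EDmut values lay below the 3 control values. Of all genes tested, 20.1% were lower, 17.9% were higher and 38% changed either way in this comparison. How many of all genes kept the lines apart in this way was not counted in either medium. For each mitochondrial gene printed by library under starvation, control replicate 3 was the lowest control library. The 13 calls are thus not 13 separate findings. The log2 fold changes ran from -1.26 to -0.71 with a median of -0.85, beside a median of 0.10 over the nuclear OXPHOS genes and -0.02 over all genes. Adjusted p-values ran from 0.00557 to 0.0394, near the threshold, and the count fell to 3 without any 1 starved NG2|EDmut library, to 4 without starved control replicate 1 or replicate 2 and to 5 without the 3 rRNA-rich libraries. All 13 log2 fold changes were negative in each of 24 alternative fits. Because the 3 NG2|EDmut values lay below the 3 control values for each gene, other fits of these libraries could hardly turn a sign.

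Among the 7 mitochondrial subunits of complex I, which form its membrane arm, mt-Nd2 was at 1192, 1233 and 1133 CPM in starved NG2|EDmut against 2736, 3082 and 1693 CPM in starved control cells (log2 fold change -1.08, SE 0.26, adjusted p = 0.00557). mt-Nd4, another membrane arm subunit, was at 1392, 1390.1 and 1349 CPM in NG2|EDmut against 3071, 3987 and 1859.6 CPM in control cells (log2 fold change -1.11, SE 0.30, adjusted p = 0.0123). Both genes separated the lines, and starved control replicate 3 was the control library closest to the NG2|EDmut values in each. mt-Nd6, the only one of the 13 encoded on the minus strand, was at 401, 405 and 385 CPM in NG2|EDmut against 886, 1411 and 564 CPM in control cells (log2 fold change -1.26, SE 0.39, adjusted p = 0.0223). It had the largest fall and also the widest relative spread among starved control libraries. The other 4, mt-Nd1, mt-Nd3, mt-Nd4l and mt-Nd5, had log2 fold changes of -0.89, -0.81, -0.71 and -0.77.

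mt-Cytb, the cytochrome b of complex III, was at 2375, 2315 and 2188 CPM in NG2|EDmut against 4984, 6303 and 3125 CPM in control cells under starvation (log2 fold change -1.07, SE 0.27, adjusted p = 0.00759). mt-Co1, the catalytic subunit of complex IV, was at 7790.0, 7748 and 7319 CPM in NG2|EDmut against 14936, 15879.5 and 9349 CPM in control cells (log2 fold change -0.81, SE 0.25, adjusted p = 0.0229). For both genes the lowest control library, replicate 3, stood above all NG2|EDmut libraries. mt-Co2 and mt-Co3, the other core subunits of complex IV, had log2 fold changes of -0.85 and -0.76. mt-Atp6, the proton channel subunit of complex V, was at 1401, 1325 and 1286 CPM in NG2|EDmut against 2533, 3918 and 1570.0 CPM in control cells (log2 fold change -1.0, SE 0.31, adjusted p = 0.0235). mt-Atp8, its small partner subunit, had a log2 fold change of -0.71. Complexes I, III, IV and V thus had medians of -0.89, -1.07, -0.81 and -0.85 over their mitochondrial genes.

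The mitochondrial genes are packed so closely that several share bases, which further limits how far neighbouring counts are separate measurements. mt-Atp8 (chrM:7766-7969) and mt-Atp6 (chrM:7927-8607) overlap by 43 bases on the plus strand of GRCm38. The shared stretch is shown because both complex V genes are read from it, in different frames, with the start codon of mt-Atp6 in capitals:
chrM:7927-7969: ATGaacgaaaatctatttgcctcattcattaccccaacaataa
mt-Nd4l and mt-Nd4 share 7 bases in the same way (chrM:10167-10173), and mt-Nd5 and mt-Nd6 share 14 bases on opposite strands (chrM:13552-13565). No source used here states whether the authors' counting used strand, so the share of mt-Nd5 reads in mt-Nd6 is unknown.

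In serum the same 13 genes had negative log2 fold changes, from -0.92 to -0.42 with a median of -0.60, but only 3 passed the test as lower in NG2|EDmut cells, where 16.2% of all genes tested were lower, 15.4% higher and 31.5% changed either way. mt-Nd2 was at 903, 1088 and 1428 CPM in NG2|EDmut against 2164, 1525 and 2798 CPM in control cells (log2 fold change -0.92, SE 0.26, adjusted p = 0.0166). mt-Nd3, a small subunit of complex I, was at 63.2, 70.2 and 84.3 CPM in NG2|EDmut against 121, 85.6 and 160.1 CPM in control cells (log2 fold change -0.75, SE 0.25, adjusted p = 0.0352). The lines did not overlap for these 2 genes nor for mt-Nd4l, which missed the threshold at a log2 fold change of -0.56 (adjusted p = 0.0988). mt-Cytb was at 1713, 2122 and 2777 CPM in NG2|EDmut against 4408, 2659.8 and 4436 CPM in control cells (log2 fold change -0.80, SE 0.27, adjusted p = 0.0382), with NG2|EDmut replicate 3 above control replicate 2. Control replicate 2 was the lowest control library for all 13 genes and lay inside the NG2|EDmut range for mt-Co1, at 6850.5 CPM beside 5965, 7119 and 9067 CPM. The count of 3 rose to 7 without control serum replicate 2 and was 0 without control serum replicate 3, NG2|EDmut serum replicate 1 or NG2|EDmut serum replicate 2. It was 1 without starved control replicate 1 or without any 1 starved NG2|EDmut library, none of which is a library of this comparison.

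**Figure D2:**
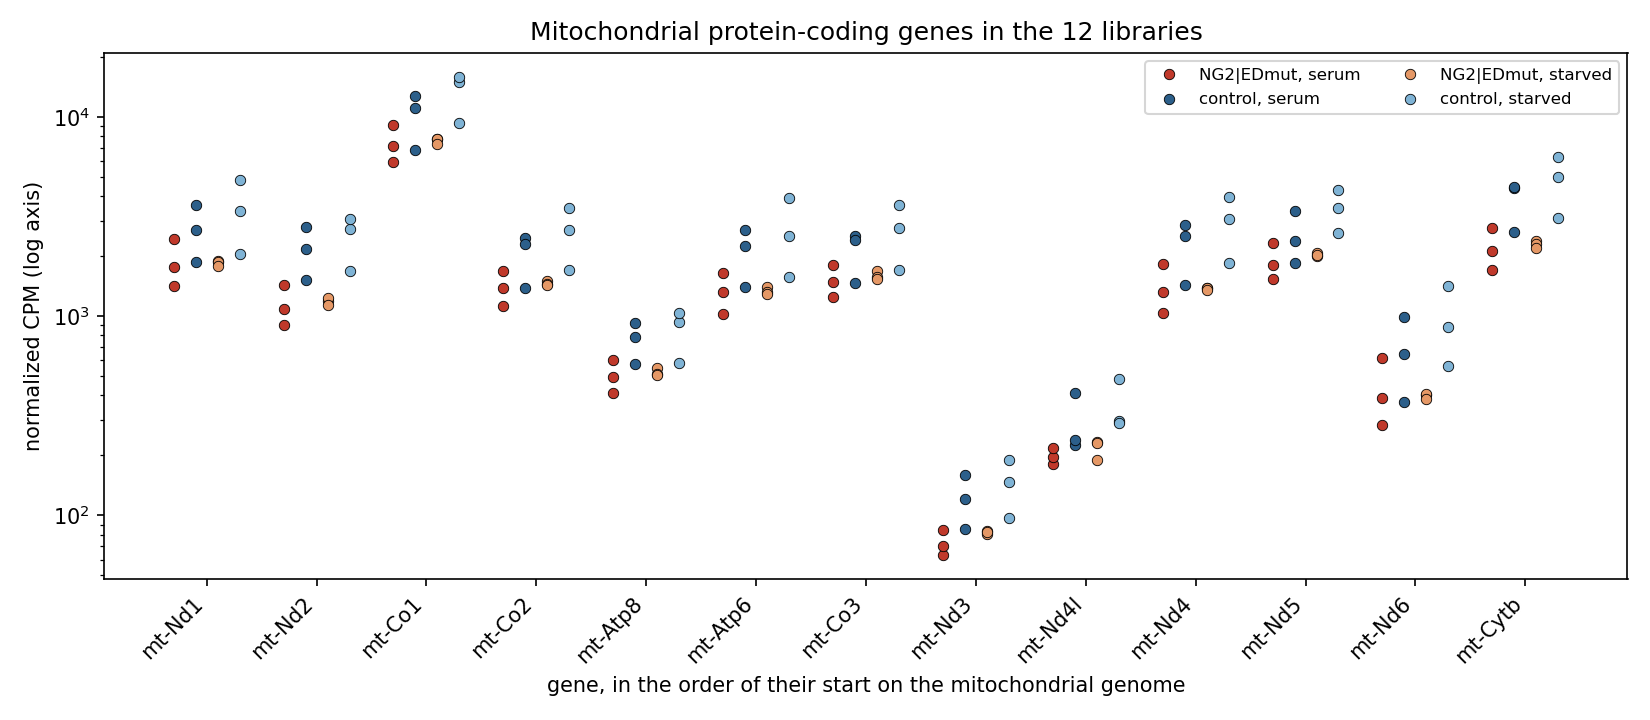
Normalized CPM (log axis) of the 13 mitochondrial protein-coding genes in each of the 12 libraries, 3 points a group, with genes in the order of their start on the mitochondrial genome. For every gene the 3 starved NG2|EDmut points lie below the 3 starved control points, and in serum the lines overlap for 10 of the 13 genes. The share of all genes without overlap was not counted.

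The nuclear OXPHOS genes differed in both directions. Under starvation 14 of the 78 tested were higher (17.9%, the same share as over all genes), 8 were lower (10.3%, beside 20.1% over all genes) and 56 did not pass the test. In serum 6 were higher (7.69%, beside 15.4%), 7 were lower (8.97%, beside 16.2%) and 65 did not pass. Most differences were small: 70 of the 78 in serum and 67 of the 78 under starvation were within 1.5-fold. The share of all genes within 1.5-fold was not counted, so this is not shown to be particular to these genes. The median log2 fold change of the nuclear genes was -0.15 in serum and 0.10 under starvation, beside -0.03 and -0.02 over all genes. The serum median was -0.03 without control serum replicate 3, -0.05 without the 3 rRNA-rich libraries and -0.22 without control serum replicate 1, and the starvation median was 0.29 without starved control replicate 2 and also without the 3 rRNA-rich libraries. Without NG2|EDmut serum replicate 3 or starved control replicate 3 the starvation median was 0.15 or 0.06. Cox6a2, Ndufb6, Ndufs5, Uqcrfs1 and Uqcrq were higher in both media, which is 5 of the 6 higher in serum and 5 of the 14 higher under starvation. Atp5mpl, Cox7b, Ndufa1 and Ndufb11 were lower in both, 4 of the 7 lower in serum and 4 of the 8 lower under starvation. Without control serum replicate 1 the serum count was 25, with 6 higher and 19 lower, where 39.7% of all genes were called, and it was 7 to 8 without any 1 NG2|EDmut serum library. Without the 3 rRNA-rich libraries it was 14, with 10 higher and 4 lower, where 12% of all genes were higher and 12.8% lower. The starvation count was 13 without starved NG2|EDmut replicate 2. Without the 3 rRNA-rich libraries it was 37, with 31 higher and 6 lower, where 17.2% of all genes were higher and 18.8% lower. Of the named genes, Cox6a2, Ndufs5, Uqcrq, Ndufb6 and Ndufa1 in both media, Atp5mpl and Cox7b in serum, and Atp5g1, Cox7a2l, Ndufb5 and Ndufv3 under starvation were called in all 24 alternatives. The calls of Cox7b under starvation (lost in 21 of 24), Cox6b1 in serum (14), Uqcrh in serum (10), Sdhb under starvation (8), Atp5mpl under starvation (6), Uqcrb in serum (3) and Cox4i1 under starvation (3) were not. Uqcrfs1 lost its call in 15 of 24 alternatives in serum and in 10 under starvation, Ndufb11 in 12 and in 2, and Ndufa11 in serum in 14. Reads may be shared where genes overlap: 35 of the nuclear genes overlap another gene, 10 on the same strand and 27 on the other, among them Ndufb6 with Smim27 (350 bases), Ndufb5 with Mrpl47 (158 bases), Uqcrb with Gm10767 (465 bases), Uqcrh with Gm12854 (297 bases) and Cox4i1 with Emc8 (352 bases).

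**Figure D3:**
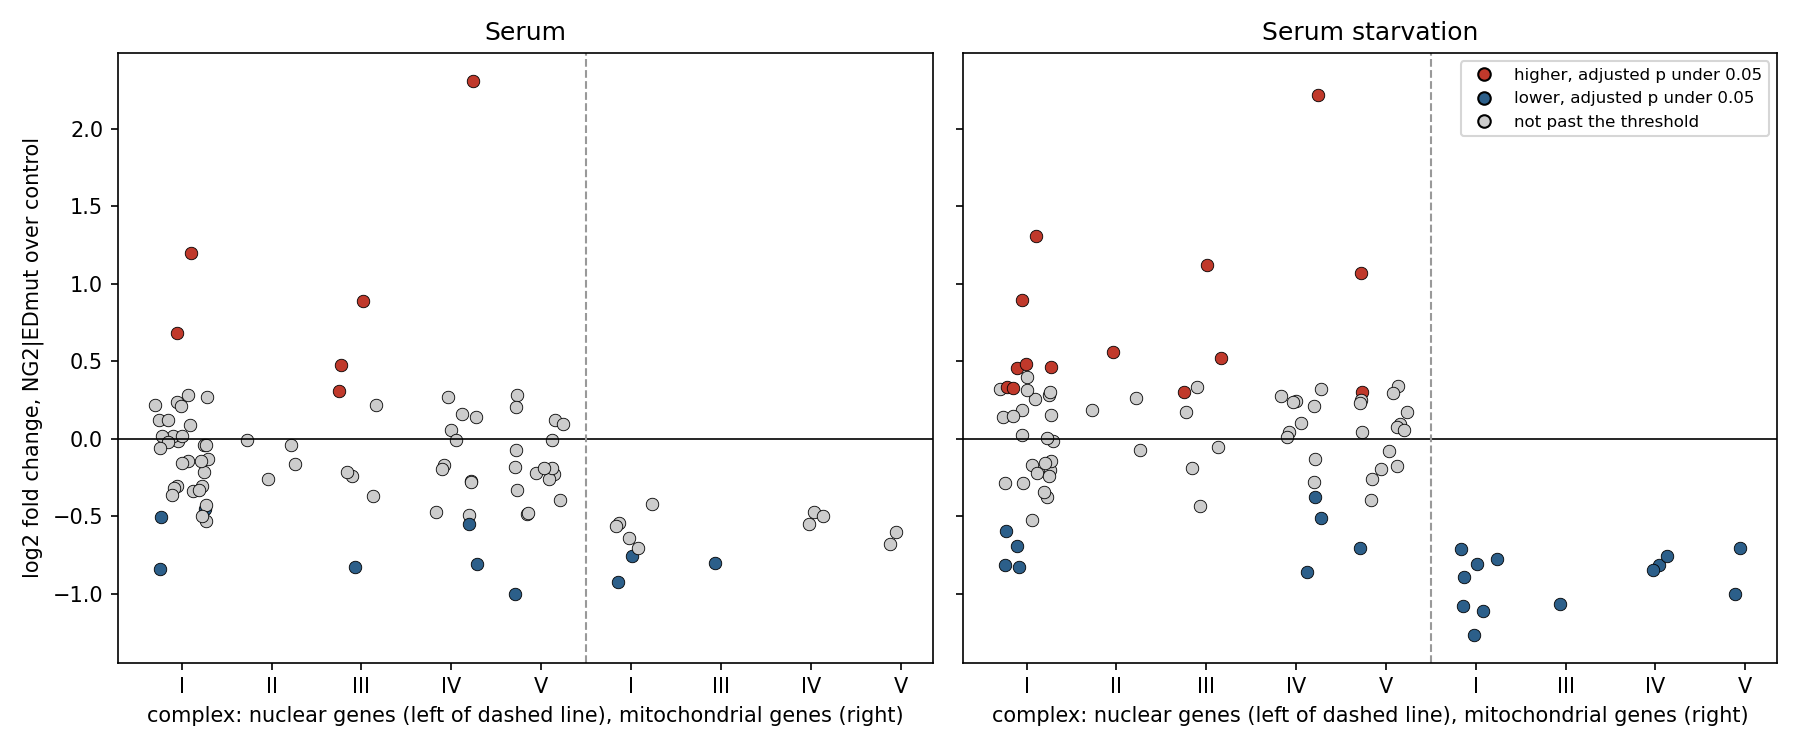
Log2 fold change of NG2|EDmut over control (y axis) for each tested gene (points), by complex, with nuclear genes left and mitochondrial genes right of the dashed line, in serum and under starvation. Red points passed as higher and blue points as lower, and grey points did not pass the test. Every mitochondrial gene lies below 0 in both panels, while nuclear genes of complexes I, III, IV and V lie on both sides.

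Of the 35 nuclear genes of complex I, 2 were higher and 3 lower in serum (14.3% called, beside 31.5% over all genes). Under starvation 7 were higher and 4 lower (31.4%, beside 38%). Ndufs5, an accessory subunit on the intermembrane space side, was at 44.6, 50.2 and 54.6 CPM in NG2|EDmut against 17.7, 18.5 and 28.9 CPM in control cells in serum (log2 fold change 1.20, SE 0.20, adjusted p = 0.000845). It was at 57.3, 55.8 and 56 CPM in NG2|EDmut against 18.7, 28.8 and 20.7 CPM in control cells under starvation (log2 fold change 1.31, SE 0.20, adjusted p = 0.000303). The lines did not overlap in either medium. Ndufb6, an accessory subunit of the membrane arm, was at 31.3, 33.9 and 30.5 CPM in NG2|EDmut against 18.6, 17.9 and 22.9 CPM in control cells in serum and had log2 fold changes of 0.69 (adjusted p = 0.00754) in serum and 0.90 (adjusted p = 0.00104) under starvation. Ndufa1, a small accessory subunit encoded on the X chromosome, went the other way. It was at 6.25, 5.61 and 5.63 CPM in NG2|EDmut against 8.91, 10.7 and 11.6 CPM in control cells in serum (log2 fold change -0.84, SE 0.17, adjusted p = 0.00339) and had a log2 fold change of -0.81 (adjusted p = 0.00288) under starvation. Ndufb5 and Ndufv3 were lower under starvation, with log2 fold changes of -0.83 (adjusted p = 0.00395) and -0.69 (adjusted p = 0.00215), and were not called in serum, with -0.31 (adjusted p = 0.219) and -0.36 (adjusted p = 0.0694).

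Complex II, which also works in the tricarboxylic acid cycle, had no called gene in serum, where 31.5% of all genes were called. It had 1 of 4 under starvation (25%, beside 38% over all genes). Sdhb, its iron-sulfur subunit, was at 66, 62 and 61 CPM in NG2|EDmut against 37.9, 49.2 and 41 CPM in control cells under starvation (log2 fold change 0.56, SE 0.20, adjusted p = 0.041). In serum the lines overlapped, at 50.9, 54.6 and 52.2 CPM in NG2|EDmut and 40.5, 69.2 and 79 CPM in control cells (log2 fold change -0.26, adjusted p = 0.344), and without control serum replicate 1 Sdhb was lower in NG2|EDmut cells there, at -0.49 (adjusted p = 0.0048). Sdha, the flavoprotein that oxidizes succinate, had log2 fold changes of -0.16 (adjusted p = 0.203) in serum and -0.07 (adjusted p = 0.596) under starvation. Sdhc and Sdhd, the membrane anchors, had -0.01 (adjusted p = 0.973) and -0.04 (adjusted p = 0.889) in serum and 0.19 (adjusted p = 0.261) and 0.27 (adjusted p = 0.246) under starvation, none past the threshold.

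Of the 8 nuclear genes of complex III, 3 were higher and 1 lower in serum (50% called, beside 31.5% over all genes). Under starvation 3 were higher and none lower (37.5%, beside 38%). Uqcrq, a small subunit next to cytochrome b, was at 118, 123 and 125 CPM in NG2|EDmut against 65.9, 57.6 and 74.1 CPM in control cells in serum (log2 fold change 0.89, SE 0.15, adjusted p = 0.0011). It was at 138, 125 and 133 CPM in NG2|EDmut against 52.3, 77.9 and 51.7 CPM in control cells under starvation (log2 fold change 1.12, SE 0.16, adjusted p = 0.00014). The lines were far apart in both media, with the lowest NG2|EDmut library at 118 CPM and the highest control library at 77.9 CPM. Uqcrb, another small subunit, was lower in serum, at 10.5, 10.3 and 12.4 CPM in NG2|EDmut against 15.7, 17.9 and 25.1 CPM in control cells (log2 fold change -0.82, SE 0.23, adjusted p = 0.0171), and was not called under starvation (log2 fold change -0.43, adjusted p = 0.161). Uqcrh, the hinge protein that contacts cytochrome c1, had log2 fold changes of 0.48 (adjusted p = 0.037) in serum and 0.18 (adjusted p = 0.415) under starvation.

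Complex IV had 1 higher and 2 lower nuclear genes of 14 tested in serum (21.4% called, beside 31.5% over all genes). It had 1 higher and 3 lower under starvation (28.6%, beside 38%). Several of its subunits exist as isoforms with tissue preference, and the one with the largest difference was Cox6a2, the heart and skeletal muscle isoform of subunit VIa. Cox6a2 was at 13.4, 13.2 and 12.5 CPM in NG2|EDmut against 5.39, 1.14 and 1.33 CPM in control cells in serum (log2 fold change 2.31, SE 0.47, adjusted p = 0.003). It was at 13.2, 10.6 and 14 CPM in NG2|EDmut against 2.17, 3.3 and 2.66 CPM in control cells under starvation (log2 fold change 2.22, SE 0.47, adjusted p = 0.00272). All 6 NG2|EDmut libraries lay above all 6 control libraries, and control serum replicate 1 was the highest control. Cox6a1, the form of most other tissues, was at 90.4, 91.6 and 98.8 CPM in NG2|EDmut and 65.9, 81.9 and 107 CPM in control cells in serum, and was not called in serum (log2 fold change 0.14, adjusted p = 0.627) or under starvation (log2 fold change 0.32, adjusted p = 0.224). Without the 3 rRNA-rich libraries it was higher in NG2|EDmut cells under starvation, at a log2 fold change of 0.58 (adjusted p = 0.00431). Per unit of length Cox6a2 made up 13.3%, 12.9% and 11.5% of the summed Cox6a FPKM in NG2|EDmut against 7.78%, 1.4% and 1.26% in control cells in serum, and 12.6%, 10.8% and 13.4% against 3.31%, 3.32% and 4.44% under starvation. The last 70 bases of Cox6a2 (chr7:128205435-128206387, minus strand) overlap Itgad on the plus strand. Without control serum replicate 1 the serum log2 fold change of Cox6a2 was 3.40 (adjusted p = 4.51e-07).

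Muscle markers were low in both lines beside this isoform. Over 6 skeletal muscle genes the summed level was 3.39 to 5.25 CPM in NG2|EDmut and 1.77 to 2.10 CPM in control libraries. Des and Acta1 gave most of it in NG2|EDmut libraries, while the muscle creatine kinase Ckm and the fast myosin Myh4 were at 0 in every NG2|EDmut library and at most 0.120 CPM in control libraries. Acta1 and Des were called higher in NG2|EDmut cells in serum (log2 fold changes 2.17 and 1.37) and under starvation (2.52 and 1.24). Tnnc2 was called higher in serum (3.57) and Tnnt3 lower in both media (-2.22 and -4.81), both at most 0.989 CPM in any library. Macrophage markers were lower in NG2|EDmut, with 8.31 to 20.5 CPM against 41.8 to 117 CPM in control libraries, most of it Lyz2, while Ptprc was at or near 0 throughout. Neural and Schwann cell markers were higher, with 117 to 148 CPM in NG2|EDmut against 23.3 to 43.2 CPM in control libraries, mostly Tubb3. Endothelial markers were at or below 1.05 CPM and adipocyte markers at or below 0.117 CPM in sum in every library, and epithelial markers summed to 7.33 to 16.5 CPM in NG2|EDmut and 1.73 to 13.7 CPM in control libraries. The part of these markers in the OXPHOS differences was not tested.

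The other isoform families of complex IV were nearly all in their common form. Cox4i2, the isoform of subunit IV known from lung and from low oxygen, gave 6, 27 and 16 estimated counts in NG2|EDmut cells in serum and was listed at 0 in the other 9 libraries. Cox7a1 and Cox8b, muscle isoforms, and Cox6b2, the testis isoform, were at or below 0.177 CPM in every library. Of their common partners, Cox7a2 and Cox8a were not called between the lines over all libraries. Cox7a2 had log2 fold changes of -0.16 (adjusted p = 0.51) and 0.04 (adjusted p = 0.871) in serum and under starvation, and Cox8a had 0.27 (adjusted p = 0.287) and 0.24 (adjusted p = 0.333). Without the 3 rRNA-rich libraries Cox8a was higher in NG2|EDmut cells in both media, at 0.37 (adjusted p = 0.0381) and 0.48 (adjusted p = 0.00602). Cox4i1 was not called in serum (log2 fold change -0.27, adjusted p = 0.0771) but was lower under starvation, at 204, 188 and 207 CPM in NG2|EDmut against 238, 286 and 253 CPM in control cells (log2 fold change -0.37, SE 0.11, adjusted p = 0.0164). Cox6b1, a subunit facing the intermembrane space, was lower in serum (log2 fold change -0.55, adjusted p = 0.0443) and not called under starvation (log2 fold change -0.28, adjusted p = 0.272). Cox7b, a small subunit encoded on the X chromosome, was lower in both media, at 23, 24.1 and 25.5 CPM in NG2|EDmut against 43.3, 39 and 44.7 CPM in control cells in serum (log2 fold change -0.81, SE 0.19, adjusted p = 0.00671), with the lines overlapping under starvation, where its log2 fold change was -0.51 (adjusted p = 0.0494).

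Cox7a2l was the nuclear gene with the largest fall under starvation. It was at 192, 174 and 184 CPM in NG2|EDmut against 287, 396 and 312 CPM in control cells under starvation (log2 fold change -0.86, SE 0.20, adjusted p = 0.00503). In serum the lines overlapped, at 204, 226 and 199.9 CPM in NG2|EDmut and 255, 133 and 176 CPM in control cells (log2 fold change 0.16, SE 0.20, adjusted p = 0.58). Control serum replicate 1, the library that stood apart, was the highest of the serum control libraries, and without it Cox7a2l was higher in NG2|EDmut cells in serum, with a log2 fold change of 0.44 (adjusted p = 0.0338).

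Complex V had 1 lower nuclear gene of 17 in serum (5.88% called, beside 31.5% over all genes). It had 2 higher and 1 lower under starvation (17.6%, beside 38%). The ring of subunit c that turns in the membrane is encoded by 3 genes, Atp5g1, Atp5g2 and Atp5g3, which give the same mature protein. Atp5g1 was at 90.3, 89.9 and 88.8 CPM in NG2|EDmut against 36.1, 53.8 and 38.3 CPM in control cells under starvation (log2 fold change 1.07, SE 0.20, adjusted p = 0.00139), with all starved NG2|EDmut libraries above all starved control libraries. In serum it was at 74.9, 79.2 and 81.4 CPM in NG2|EDmut and 45.2, 77.9 and 81 CPM in control cells, where control replicate 1 was low and the other controls lay inside the NG2|EDmut range (log2 fold change 0.21, adjusted p = 0.469). Atp5g2 and Atp5g3 were not called under starvation (log2 fold changes 0.17 and 0.30, adjusted p = 0.252 and 0.23), and Atp5g1 made up 12%, 12.5% and 11.8% of the summed FPKM of the 3 genes in starved NG2|EDmut against 6.82%, 7.63% and 6.78% in starved control cells. Atp5mpl, a small subunit of the membrane part, was lower in serum, at 5.74, 6.01 and 7.38 CPM in NG2|EDmut against 14.3, 10.0 and 14 CPM in control cells (log2 fold change -1.0, SE 0.23, adjusted p = 0.00624), and under starvation had a log2 fold change of -0.70 (adjusted p = 0.0294) with overlapping lines.

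**Figure D4:**
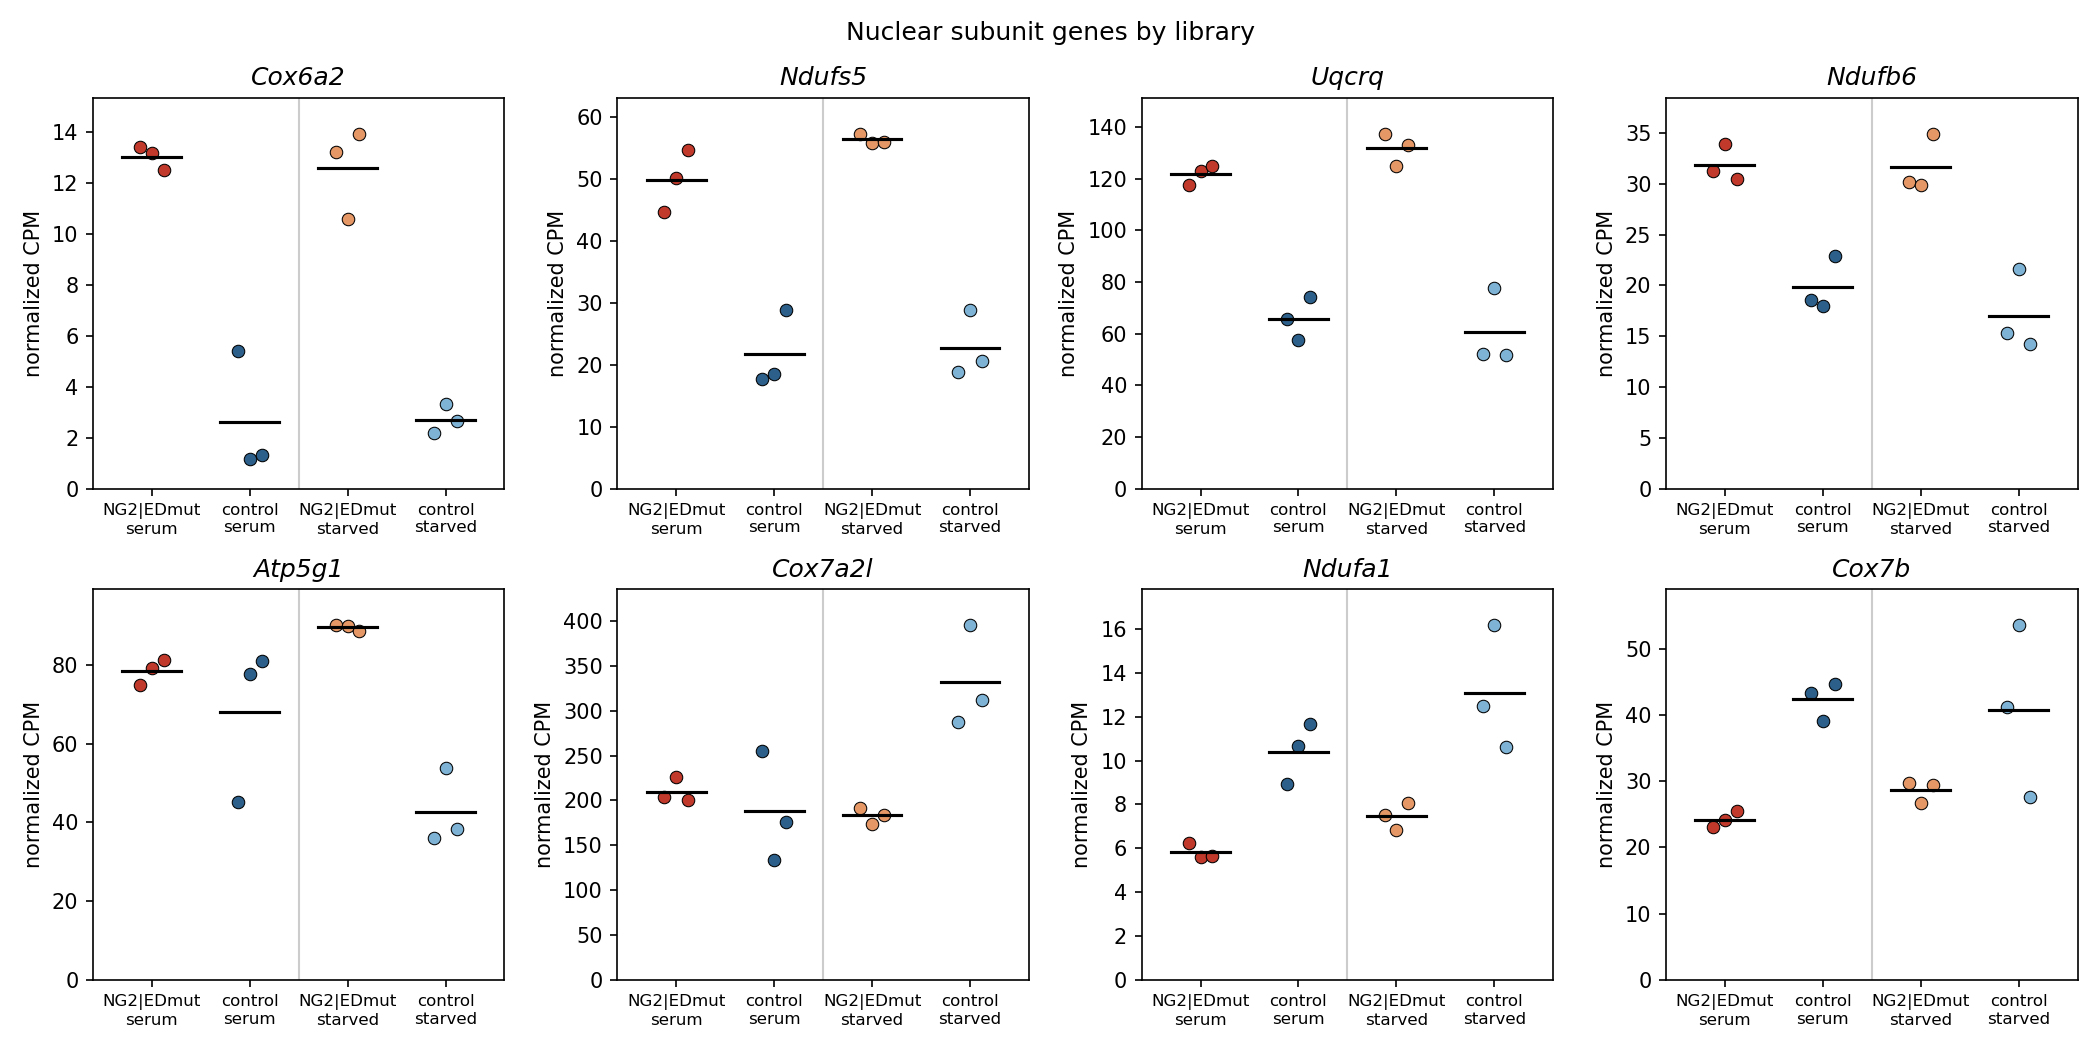
Normalized CPM (y axes, from 0) of 8 nuclear OXPHOS genes in each library (points, replicates 1 to 3 from left to right), by group, with the group mean as a bar. Cox6a2, Ndufs5, Uqcrq and Ndufb6 were higher in NG2|EDmut cells in both media, Ndufa1 and Cox7b were lower in both, and Atp5g1 and Cox7a2l separated the lines under starvation only.

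Within NG2|EDmut cells no OXPHOS gene passed the test for starvation against serum. Of the 78 nuclear and 13 mitochondrial genes 0 passed the edgeR test, where 2.06% of all genes did, with 0.957% higher and 1.1% lower under starvation. At an unadjusted p under 0.05 there were 2 nuclear and 0 mitochondrial genes, and DESeq2 and limma also called 0. A fit of these 6 libraries alone called 7 of 78 nuclear genes, all higher, where 15.7% of all genes were called and 6.96% were higher. mt-Co1 was at 7790.0, 7748 and 7319 CPM in starved NG2|EDmut and 5965, 7119 and 9067 CPM in NG2|EDmut cells in serum, with the starved values inside the serum range. Atp5b was at 1504, 1432 and 1432 CPM in starved NG2|EDmut and 1443, 1501 and 1471 CPM in NG2|EDmut cells in serum. The starved libraries lay closer together than the serum libraries for mt-Co1. The median log2 fold change was 0.09 over the nuclear and 0.06 over the mitochondrial genes.

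Within control cells starvation raised 3 nuclear OXPHOS genes and lowered 4, where 9.45% of all genes were higher, 10.8% lower and 20.2% changed either way. Cox7a2l was at 287, 396 and 312 CPM in starved control against 255, 133 and 176 CPM in control cells in serum (log2 fold change 0.82, SE 0.20, adjusted p = 0.0137). Ndufa6, an accessory subunit, and Ndufv3, a small subunit of the NADH-binding module, were also higher, with log2 fold changes of 0.81 (adjusted p = 0.029) and 0.65 (adjusted p = 0.00778). Atp5b was at 1049, 1239 and 1158 CPM in starved control against 1267, 1935 and 1955 CPM in control cells in serum (log2 fold change -0.58, SE 0.15, adjusted p = 0.0195). The starved libraries lay below the serum libraries, with serum replicate 1 nearest to them. Ndufa12, an accessory subunit, Atp5g1 and Ndufs1, the iron-sulfur subunit of the NADH-oxidizing arm, were lower, with log2 fold changes of -0.67 (adjusted p = 0.0141), -0.67 (adjusted p = 0.0364) and -0.30 (adjusted p = 0.0492). None of the 13 mitochondrial genes passed the edgeR test, although all 13 log2 fold changes were positive, from 0.16 to 0.51 with a median of 0.33. Without starved control replicate 2 the median was 0.07 with 4 of the 13 negative, without control serum replicate 2 it was 0.13 with 1 negative, and without starved control replicate 1 it was 0.25 with 1 negative. It was 0.55 without starved control replicate 3. At an unadjusted p under 0.05 there were 0 mitochondrial genes, and DESeq2 and limma called 0. Without control serum replicate 1, 20 nuclear genes were called (5 higher and 15 lower, where 33.2% of all genes were called) and 2 mitochondrial genes, mt-Nd5 at a log2 fold change of 0.71 (adjusted p = 0.0216) and mt-Nd4l at 0.62 (adjusted p = 0.0321). The nuclear count was 2 without control serum replicate 2, 3 without control serum replicate 3, 4 without starved control replicate 3, 4 without the 3 rRNA-rich libraries, where 8.9% of all genes were called, and 0 in a fit of these 6 libraries alone, where 4.56% were.

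The interaction of line and starvation, the difference between the starvation responses of NG2|EDmut and control cells, passed the edgeR test for 0 nuclear and 0 mitochondrial genes, where 4.39% of all genes passed, 2.03% with a positive and 2.36% with a negative interaction. At an unadjusted p under 0.05 there were 10 nuclear and 0 mitochondrial genes, DESeq2 called 2 nuclear genes and limma 0. Cox7a2l came nearest, with an interaction of -1.01 on the log2 scale (SE 0.28, adjusted p = 0.0662). Atp5g1 had 0.86 (adjusted p = 0.12) and Sdhb 0.82 (adjusted p = 0.128). The count depended on control serum replicate 1: without it 16 nuclear genes passed, 13 with a positive and 3 with a negative interaction, where 20.2% of all genes passed. Among them Cox7a2l had -1.30 (adjusted p = 0.000789), Atp5g1 1.09 (adjusted p = 0.00188) and Sdhb 1.06 (adjusted p = 0.000549). The difference between the lines in mitochondrial transcripts, 13 genes called under starvation and 3 in serum, was thus not shown to differ between the media.

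Genes whose products work on the mitochondrial genome and its RNA are encoded in the nucleus, and more of them were higher than lower in NG2|EDmut cells in serum. Of the 236 genes tested from all pathway lists, 51 were higher and 19 lower in serum (29.7% called, beside 31.5% of all genes). Under starvation 75 were higher and 22 lower (41.1% called, beside 38% of all genes). Over all genes 15.4% were higher and 16.2% lower in serum, and 17.9% and 20.1% under starvation. Of 22 tested genes of mitochondrial RNA processing and stability, 9 were higher and 0 lower in serum (median log2 fold change 0.26), and 9 were higher and 1 lower under starvation (0.35). Mtpap, the mitochondrial poly(A) polymerase, had log2 fold changes of 0.78 (adjusted p = 0.000293) in serum and 0.61 (adjusted p = 0.00104) under starvation. Lrpprc, which stabilizes mitochondrial mRNAs, had 0.68 (adjusted p = 0.002) and 0.96 (adjusted p = 0.000118), and Tbrg4, an RNA-binding protein of the FASTK family, had 0.53 (adjusted p = 0.0125) and 1.18 (adjusted p = 4.6e-05). Elac2, which cuts the 3' ends of tRNAs out of the long mitochondrial transcripts, was higher under starvation at 1.40 (adjusted p = 5.53e-05), and Ptcd1, a pentatricopeptide repeat protein, in serum at 0.54 (adjusted p = 0.00595). Of 21 genes of mitochondrial DNA transcription and replication, 4 were higher and 0 lower in serum, and 4 were higher and 4 lower under starvation. Tfb2m, the transcription initiation factor, had 0.65 (adjusted p = 0.000524) and 0.64 (adjusted p = 0.00037), Mgme1, a DNA exonuclease, had 0.56 (adjusted p = 0.00718) and 0.97 (adjusted p = 0.000138), and Tfb1m, the rRNA methyltransferase, had 0.81 (adjusted p = 0.00342) in serum. Tk2, the mitochondrial thymidine kinase, was lower under starvation at -0.71 (adjusted p = 0.00602). Of 78 mitochondrial ribosomal protein genes, 10 were higher and 5 lower in serum, and 22 were higher and 3 lower under starvation. Mrps22, Mrpl50 and Mrps15 were among the higher genes in both, with log2 fold changes of 1.06, 1.05 and 1.10 in serum and 1.94, 1.34 and 1.48 under starvation. Within control cells, which these comparisons share as the reference, starvation against serum gave 0 higher and 9 lower among the mitochondrial ribosomal protein genes, and 1 higher and 5 lower among the RNA genes. Over all genes 9.45% were higher and 10.8% lower there.

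Of 50 assembly factors of the complexes, 16 were higher and 4 lower in serum (median log2 fold change 0.21), and 18 were higher and 4 lower under starvation (0.34). Over all genes 15.4% were higher and 16.2% lower in serum, and 17.9% and 20.1% under starvation. Atpaf1, a chaperone of the ATP synthase head, had 0.98 (adjusted p = 0.000233) in serum and 1.60 (adjusted p = 4.02e-06) under starvation. Sco1, a copper chaperone of complex IV, had 0.77 (adjusted p = 0.000875) in serum, Atpaf2, a further ATP synthase chaperone, had 0.74 (adjusted p = 0.00141) in serum, and Uqcc1 of complex III and Cox10, which makes heme A, had 0.87 (adjusted p = 2.27e-05) and 1.49 (adjusted p = 2.59e-05) under starvation. Of 7 tested subunits and partners with other symbols, 1 was higher and 1 lower in serum, and 2 were higher and 1 lower under starvation. Cyc1, the cytochrome c1 of complex III, had 0.64 (adjusted p = 0.00602) under starvation, the hypoxia-responsive Higd1a had 1.06 (adjusted p = 0.00281), its relative Higd2a had 0.65 (adjusted p = 0.00994) in serum, and Atpif1, the inhibitor of the ATP synthase, had -0.66 (adjusted p = 0.00803) in serum and -0.46 (adjusted p = 0.039) under starvation.

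Of 20 regulators of mitochondrial biogenesis, 4 were higher and 2 lower in serum, and 5 were higher and 3 lower under starvation. The shares over all genes were 15.4% higher and 16.2% lower in serum, and 17.9% and 20.1% under starvation. Esrra, a nuclear receptor that binds OXPHOS promoters, had log2 fold changes of 0.37 (adjusted p = 0.0204) in serum and 0.53 (adjusted p = 0.0018) under starvation. Sirt1, a deacetylase, and Myc had -0.78 (adjusted p = 0.000462) and 1.43 (adjusted p = 0.000607) under starvation, and Gabpb2 and Tfeb had -0.76 (adjusted p = 0.00356) and -0.85 (adjusted p = 0.0183) in serum. In control cells 1 was higher and 6 lower under starvation, which lowered Myc by 1.51 and Pprc1, a coactivator, by 1.02 on the log2 scale. Of 25 genes of the tricarboxylic acid cycle and pyruvate dehydrogenase, 5 were higher and 6 lower in serum, and 10 were higher and 4 lower under starvation. Pdk4, a kinase that switches pyruvate dehydrogenase off, had -2.03 (adjusted p = 1.92e-05) under starvation, while Pdhx and Dlat, subunits of that enzyme, had 1.02 (adjusted p = 4.63e-05) and 0.88 (adjusted p = 9.71e-05). Idh3b had 0.56 (adjusted p = 0.00189) and Idh2 -0.99 (adjusted p = 0.00284) in serum. Of 13 genes of coenzyme Q synthesis, 2 were higher and 1 lower in serum, and 5 were higher and 2 lower under starvation, with Coq5 at 0.51 (adjusted p = 0.00342) in serum and 0.80 (adjusted p = 0.000112) under starvation. Coq10a was at -0.61 (adjusted p = 0.00873) in serum and -0.95 (adjusted p = 0.000351) under starvation, Coq9 at 0.55 (adjusted p = 0.0403) in serum and Pdss1 at 1.13 (adjusted p = 0.0116) under starvation. These lists are described by counts beside the shares over all genes given above, and nothing particular to a list was tested.

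Starvation within control cells gave as many or more lower than higher genes in each of these lists, with 2 of each for mitochondrial DNA and 3 of each for coenzyme Q. Of the 236 genes of all lists it raised 9 and lowered 43 (22% called, beside 20.2% of all genes, with 9.45% higher and 10.8% lower). It lowered 8 and raised 1 of 50 assembly factors, with Ndufaf4 of complex I at -1.15 (adjusted p = 0.00922) and Cox10 at -0.75 (adjusted p = 0.00787). Cycs, the cytochrome c that carries electrons from complex III to complex IV, had -1.04 (adjusted p = 0.0277), and Ndufab1, the mitochondrial acyl carrier protein of complex I, had -0.48 (adjusted p = 0.0358). Pnpt1, Tbrg4 and Elac2 of RNA processing had log2 fold changes of -0.78, -0.87 and -0.94. Mrps22 had -0.69 (adjusted p = 0.00299) and Mgme1 -0.84 (adjusted p = 0.00169). Pdss1, which makes the side chain of coenzyme Q, had -1.66 (adjusted p = 0.00362), and Pdk2, a pyruvate dehydrogenase kinase, rose at 1.23 (adjusted p = 0.000643). Within NG2|EDmut cells 3 of the 236 genes tested from the pathway lists passed (1.27%, beside 2.06% over all genes). The pyruvate dehydrogenase kinase Pdk1 had 0.91 (adjusted p = 0.0396), the kinase Pdk4 -0.92 (adjusted p = 0.0473) and the phosphatase Pdp1 -0.63 (adjusted p = 0.0242).

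Promoters of nuclear OXPHOS genes are known for sites of NRF1, GABP (an ETS factor), YY1 and the receptor ERRA. RefSeq promoter windows (build GRCm38.p6) of 300 bases, most of them upstream of a start site, were matched by symbol for 67 of the 82 nuclear genes and searched on both strands. GCGCATGCG, the NRF1 motif, was in 11.9% of the 67 windows, against 1.75% of all 32851 windows. AAGATGGCG, the YY1 motif, was in 8.96% against 1.4%, CCGGAAGT, the ETS motif, in 7.46% against 3.89%, and TCAAGGTCA, the ERRA motif, in 2.99% against 0.423%. At least 1 of them was in 20 of the 67 windows (29.9%), against 7.11% of all windows. The NRF1 motif overlaps its own reverse complement and can share its end bases GCG with the YY1 motif. Under starvation 2 of 10 higher genes with a window, 0 of 6 lower and 18 of 48 that did not pass held one, and in serum 1 of 4 higher, 1 of 5 lower and 18 of 55, with 3 genes that have a window left untested. The windows of Ndufs5, with the second largest rise, and Cox7a2l, with the largest fall under starvation, are shown because they belong to genes that the results turn on and hold none of the 4 motifs. Those of Uqcrc1 and Ndufa11, picked after their values were seen, are shown because the NRF1 motif, on both strands and in capitals, stands in a gene that was higher under starvation and in a gene that was lower in serum:
Ndufs5, chr4:123718137-123718436, strand -: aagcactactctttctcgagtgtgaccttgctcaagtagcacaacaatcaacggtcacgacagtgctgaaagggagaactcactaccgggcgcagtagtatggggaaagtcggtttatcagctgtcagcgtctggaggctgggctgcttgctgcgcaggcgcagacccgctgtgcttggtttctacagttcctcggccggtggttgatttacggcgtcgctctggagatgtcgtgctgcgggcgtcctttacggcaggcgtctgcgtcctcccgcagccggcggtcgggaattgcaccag
Cox7a2l, chr17:83514284-83514583, strand -: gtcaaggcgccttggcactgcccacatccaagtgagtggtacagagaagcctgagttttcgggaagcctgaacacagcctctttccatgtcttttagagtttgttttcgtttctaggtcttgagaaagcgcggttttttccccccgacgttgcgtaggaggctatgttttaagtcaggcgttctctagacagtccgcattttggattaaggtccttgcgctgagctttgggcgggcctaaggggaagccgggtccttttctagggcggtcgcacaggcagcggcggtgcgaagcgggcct
Uqcrc1, chr9:108936398-108936697, strand +: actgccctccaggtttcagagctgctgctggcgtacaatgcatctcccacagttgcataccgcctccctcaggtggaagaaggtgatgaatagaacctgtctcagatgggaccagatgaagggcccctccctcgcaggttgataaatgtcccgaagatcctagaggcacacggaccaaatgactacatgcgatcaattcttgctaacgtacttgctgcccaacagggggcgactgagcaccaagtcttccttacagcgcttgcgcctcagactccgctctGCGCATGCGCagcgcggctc
Ndufa11, chr17:56717512-56717811, strand +: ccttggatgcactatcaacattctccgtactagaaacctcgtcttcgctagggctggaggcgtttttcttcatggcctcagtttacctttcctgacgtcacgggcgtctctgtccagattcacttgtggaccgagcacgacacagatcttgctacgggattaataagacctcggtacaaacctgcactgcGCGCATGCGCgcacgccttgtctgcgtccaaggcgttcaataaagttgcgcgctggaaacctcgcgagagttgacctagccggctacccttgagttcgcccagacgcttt
Uqcrc1, a core protein of complex III, had a log2 fold change of 0.52 (adjusted p = 0.00416) under starvation, and Ndufa11, an accessory subunit of complex I, had -0.45 (adjusted p = 0.0452) in serum. A match describes letters in a window and is not a measured site.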

How the data were processed

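Poly(A)-selected stranded RNA libraries, 3 for each of 4 groups, were sequenced from both ends on a NovaSeq instrument. Per the labels and methods, the authors aligned reads with HISAT2, assembled and merged transcripts with StringTie and gffcompare, and deposited estimated counts and FPKM per gene. The estimated counts were whole numbers that had not been normalized, and the authors' FPKM were scaled by transcript length and depth. Versions, annotation release and strand setting were not stated, and gene coordinates matched GRCm38. Columns of the authors' own fold changes and p-values were not used.

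The estimated counts were analysed with edgeR 4.0.16 in R 4.3.3. Genes were filtered with filterByExpr, scaled by TMM, and fitted over all 12 libraries with 1 mean per group. Quasi-likelihood tests were adjusted by Benjamini-Hochberg over 18703 genes, and a gene was called at an adjusted p under 0.05. The standard error is the absolute log2 fold change divided by the square root of F. All adjusted p-values in the text come from this test unless another tool is named. CPM uses TMM-scaled library sizes. Levels of single genes were compared with each other by FPKM, whereas the mitochondrial, nuclear and marker sums used CPM. DESeq2 1.42.0 and limma 3.58.1, limma on log2(FPKM + 1) and log2(FPKM + 0.1), served as alternatives, with other filters, scalings, a replicate block and each library left out. Scripts were tested on simulated data. The named genes were all mitochondrial genes, the Sdh genes, the isoform families, the 5 called genes with the largest rise and fall in each comparison at 10 CPM or more, and up to 3 genes from each list by adjusted p in each comparison. A gene that this rule would name is not reported here. The members and gene lists were chosen with earlier results of these data known.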

Additional observations from a re-analysis of the deposited data

Results flagged for a closer look

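No OXPHOS gene had a starvation response that differed between the lines by the interaction test. Of the 236 genes tested from the pathway lists 6 did (2.54%, beside 4.39% over all genes). Mrps22, a protein of the small mitochondrial ribosomal subunit, had a starvation response of 0.19 in NG2|EDmut cells and -0.69 in control cells on the log2 scale, a difference of 0.88 (edgeR, adjusted p = 0.0156), which did not pass in 4 of 23 alternatives (adjusted p 0.000122 to 0.0812). Elac2, the mitochondrial tRNA 3′ endonuclease, had a starvation response of 0.16 in NG2|EDmut cells and -0.94 in control cells on the log2 scale, a difference of 1.10 (edgeR, adjusted p = 0.0243), which did not pass in 11 of 23 alternatives (adjusted p 0.000113 to 0.13). Pnpt1, an exonuclease of mitochondrial RNA, had a starvation response of -0.11 in NG2|EDmut cells and -0.78 in control cells on the log2 scale, a difference of 0.67 (edgeR, adjusted p = 0.0302), which did not pass in 12 of 23 alternatives (adjusted p 0.00115 to 0.134). All 3 of these genes had a positive difference and a negative response in control cells. Pdk2, a kinase of pyruvate dehydrogenase, had a starvation response of 0.12 in NG2|EDmut cells and 1.23 in control cells on the log2 scale, a difference of -1.11 (edgeR, adjusted p = 0.019), which did not pass in 7 of 23 alternatives (adjusted p 8.79e-05 to 0.097). Pdk4, another kinase of that enzyme, had a starvation response of -0.92 in NG2|EDmut cells and 0.38 in control cells on the log2 scale, a difference of -1.30 (edgeR, adjusted p = 0.0303), which did not pass in 11 of 23 alternatives (adjusted p 0.00167 to 0.0997). Sirt1, a deacetylase, had a starvation response of -0.44 in NG2|EDmut cells and 0.26 in control cells on the log2 scale, a difference of -0.70 (edgeR, adjusted p = 0.0474), which did not pass in 19 of 23 alternatives (adjusted p 0.00304 to 0.195). Groups of 3 libraries are too small for a test of single outlying values, and none was run.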

How the results depend on the processing

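Over 24 alternatives (23 for the interaction) none of the 58 calls of OXPHOS genes turned its direction: 1089 values kept their call and 303 fell short of the threshold with the same sign. All 13 mitochondrial genes stayed lower in NG2|EDmut cells in sign in each alternative in both media, but their counts moved. Under starvation, where the lines did not overlap for these genes, the sign could hardly have turned. In serum (3 lower) the count was 1 without a filter on low counts, 1 in a fit of only the groups compared, 0 in limma without a filter, and 0 to 7 with 1 library left out. Under starvation (13 lower) it was 6 in limma on log2(FPKM + 1), 6 on log2(FPKM + 0.1), 1 in limma without a filter, 3 to 13 with 1 library left out and 5 without the 3 rRNA-rich libraries, an alternative chosen after seeing the data. The nuclear count in serum (13) was 8 in a fit of only the groups compared and 7 to 25 with 1 library left out, and under starvation (22) it was 13 to 31 and, without the rRNA-rich libraries, 37. For starvation within NG2|EDmut cells the nuclear count (0) was 7 in a fit of only the groups compared. Within control cells the nuclear count (7) was 11 in DESeq2, 14 in limma with either pseudocount, 0 in a fit of only the groups compared, 4 without the rRNA-rich libraries and 2 to 20 with 1 library left out, and the mitochondrial count (0) was 0 to 2. The interaction count of nuclear genes (0) was 2 in DESeq2, 1 without the rRNA-rich libraries and 0 to 16 with 1 library left out. With the replicate number as a block the serum mitochondrial count was 1, and every other count stayed within 1.5 times its main value. Same-numbered libraries did not deviate together (r from -0.13 to 0.09 over 18 pairs). With 3 libraries a group this cannot show whether the numbers mark a shared culture or preparation. The difference in log2 ratio of mitochondrial to nuclear sums was -0.79 to -0.27 in serum and -1.2 to -0.82 under starvation with 1 library left out. The cause of these movements was not tested. Depth limits the 4 OXPHOS genes left untested and Cox6a2, which was as low as 1.14 CPM in control cells.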
